A study of Rattus norvegicus with 12 samples.

Results

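The complement genes C3, C1qa, C1qb, C1qc, C1s, C1r, Serping1, Cfi and Cfb were followed in kidney RNA of 4 rat strains. They are components of the complement system and their regulators that the kidney expresses. Members were all probe sets annotated to 1 of these gene symbols alone. Of the 9 genes, 8 had such a probe set, each of them 1, among 14213 genes named in the same way on the array. Cfb had none, because each of its 4 probe sets was annotated to Cfb and C2 together.

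The strains were compared at 30 days of age, and all animals were fed the same diet. SD animals are outbred Sprague Dawley rats. The PCK strain arose from that stock and carries mutated Pkhd1, the locus behind autosomal recessive polycystic kidney disease in people. FHH, Fawn Hooded Hypertensive, is an inbred strain and carries no PCK segment. FHH.Pkhd1 is a congenic strain, FHH.PCK-(D9Rat35-D9Rat70)/Mcwi, with a PCK segment of chromosome 9 that holds the Pkhd1 locus on the FHH background. PCK and FHH.Pkhd1 thus share the mutated segment and differ in background, and the animals' sex is not stated in the labels. RNA from both kidneys of 6 animals of a strain was pooled and put on 3 arrays. The 12 arrays are therefore 4 pools with 3 technical replicates each, and every standard deviation (SD), standard error (SE) and p-value below measures the spread between arrays of a pool, not between animals. In such whole-organ RNA, a lower number of cells of a type and less RNA per cell cannot be told apart.

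Complement is a cascade of plasma and tissue proteins that marks microbes, immune complexes and damaged cells. In the classical pathway C1q, built of A, B and C chains and made mainly by macrophages and dendritic cells, binds its target and activates the serine proteases C1r and C1s, which go on to cleave C4 and C2. All pathways meet at C3, whose cleavage product C3b coats surfaces, and factor B, encoded by Cfb, supplies the protease of the alternative pathway. C1 inhibitor, encoded by Serping1, blocks C1r and C1s, and factor I, encoded by Cfi, degrades C3b and C4b. Most circulating complement comes from the liver, but kidney tubule cells, fibroblasts and macrophages also make components.

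The 3 C1q genes follow each other in gene order on chromosome 5, and C1r and C1s are neighbours on chromosome 4, in the RefSeq annotation of the GRCr8 assembly. C3 lies on chromosome 9, as does Pkhd1, 261 protein-coding genes further along. Whether C3 lies within the PCK segment of the congenic strain was not examined here. Promoter sequences were held for 5 of the 9 genes, and 3 are printed: that of Cfi, a member called higher in PCK, and those of C3 and C1qa, which held matches to a searched motif. Each is the 250 bases before the gene's start in RefSeq (GRCr8), 5′ to 3′ on the gene's strand, with motif matches in capitals.
Cfi, chr2:221063066-221063315, + strand: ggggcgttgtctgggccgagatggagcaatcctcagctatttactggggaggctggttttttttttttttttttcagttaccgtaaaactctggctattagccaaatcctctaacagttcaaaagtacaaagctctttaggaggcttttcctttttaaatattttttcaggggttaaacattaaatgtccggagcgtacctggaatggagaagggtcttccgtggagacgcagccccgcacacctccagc
C3, chr9:2201340-2201589, - strand: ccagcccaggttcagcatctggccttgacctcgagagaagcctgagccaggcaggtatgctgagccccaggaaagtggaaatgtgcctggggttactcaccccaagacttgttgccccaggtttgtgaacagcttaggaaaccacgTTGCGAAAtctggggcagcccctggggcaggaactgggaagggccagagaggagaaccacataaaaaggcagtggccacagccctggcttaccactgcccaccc
C1qa, chr5:154419934-154420183, - strand: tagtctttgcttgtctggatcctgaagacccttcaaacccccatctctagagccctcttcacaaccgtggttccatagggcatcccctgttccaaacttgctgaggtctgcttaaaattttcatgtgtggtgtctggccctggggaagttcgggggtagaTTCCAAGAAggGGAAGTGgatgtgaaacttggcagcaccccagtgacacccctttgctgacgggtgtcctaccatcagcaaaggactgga

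The motifs searched, on both strands, were TTGCNNAA (bound by C/EBP factors), TTCNNNGAA (STAT factors), an interferon-response motif (GAAA, any 2 bases, GAAA) and GGAAGTG (ETS factors such as PU.1). In C3 the capitals are a C/EBP-like match at 104 to 97 bases before the start. In C1qa they are a STAT-like match at 90 to 82 and an ETS-like match at 79 to 73 bases before it, which do not overlap. C1r held a C/EBP-like match at 83 to 76 bases, and C1qb and Cfi held none of the 4 motifs. Of 33469 promoters of the same length, 9.22% held the C/EBP-like, 7.67% the STAT-like, 3.41% the interferon-response and 8.25% the ETS-like motif. A match is a description of the letters and not a binding site.

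Values are log2 probe set signals, and array medians were 6.41 to 6.46. Correlations over all probe sets were 0.9973 to 0.9985 between arrays of a pool and 0.9862 to 0.9959 between pools, and no array stood apart from its pool. The number of arrays limits the precision. The tubule markers Slc34a1 (13.5 to 13.6 in the pools), Umod and Aqp2 and the podocyte marker Nphs1 were well above the low limit in every pool. A signal under 5.74, the 40th percentile of all values, is called low here. This limit is not a measured background. The 3′ minus 5′ signal of beta-actin, which reflects RNA integrity and labelling, was 1.07 to 1.12 in SD, 1.31 to 1.35 in PCK, 1.37 to 1.40 in FHH and 1.18 to 1.21 in FHH.Pkhd1. Its part in the differences below was not tested. Differences were tested with limma over 31042 probe sets. Calls needed an adjusted p below 0.05 together with a difference of 1.5-fold or more.

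PCK was first set against SD, the stock that gave rise to the mutant strain. Both soluble regulators among the members, Serping1 and Cfi, were higher in PCK, while C3 and the 3 C1q chains were at like levels in the pools. The proteases C1r and C1s were higher in PCK by smaller steps, under 1.5-fold. In all, 2 of the 8 members were called, both higher, where 1.3% of all probe sets were called higher and 1.21% lower. The median difference was 0.16 for the members and 0.0008 for all probe sets.

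Serping1 stood at 11.14, 10.93 and 11.05 on the PCK arrays and at 9.73, 9.70 and 9.66 on the SD arrays. Every PCK array was thus well above every SD array, and such a lack of overlap was seen for 34.4% of all probe sets. The log2 difference for this mRNA of C1 inhibitor was 1.34 ± 0.06 (SE), which is 2.54-fold (limma adjusted p = 2.08e-08), a difference larger in size than 99.6% of probe sets. Cfi stood at 6.50, 6.77 and 6.52 in PCK and at 5.66, 5.79 and 5.65 in SD. Its arrays did not overlap either, and in SD its mean of 5.70 was low, so the difference of 0.90 ± 0.07 (limma adjusted p = 3.27e-06) is given without a fold. Cfi was above the low limit in PCK alone of the 4 pools.

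C1s was at 10.44, 10.47 and 10.45 in PCK and at 10.17, 10.14 and 10.20 in SD, with no overlap. The difference of 0.28 ± 0.04 passed the adjusted p (limma, 0.000476) but not the fold limit. C1r, the partner protease, was at 10.15, 10.34 and 10.21 against 10.10, 9.91 and 9.90, a difference of 0.26 ± 0.08 (limma adjusted p = 0.038). Thus 4 of the 8 members passed the adjusted p alone, all higher in PCK, where 18.7% of all probe sets passed it in either direction. C3, the central component, was at 6.58, 6.51 and 6.54 in PCK and 6.51, 6.65 and 6.72 in SD. These arrays overlap, and the difference of -0.08 had a 95% interval of -0.26 to 0.10. The intervals of the C1q chains were -0.14 to 0.13 for C1qa, -0.12 to 0.23 for C1qb and -0.07 to 0.20 for C1qc, so a 1.5-fold difference between these pools lies outside each of them.

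**Figure D1:**
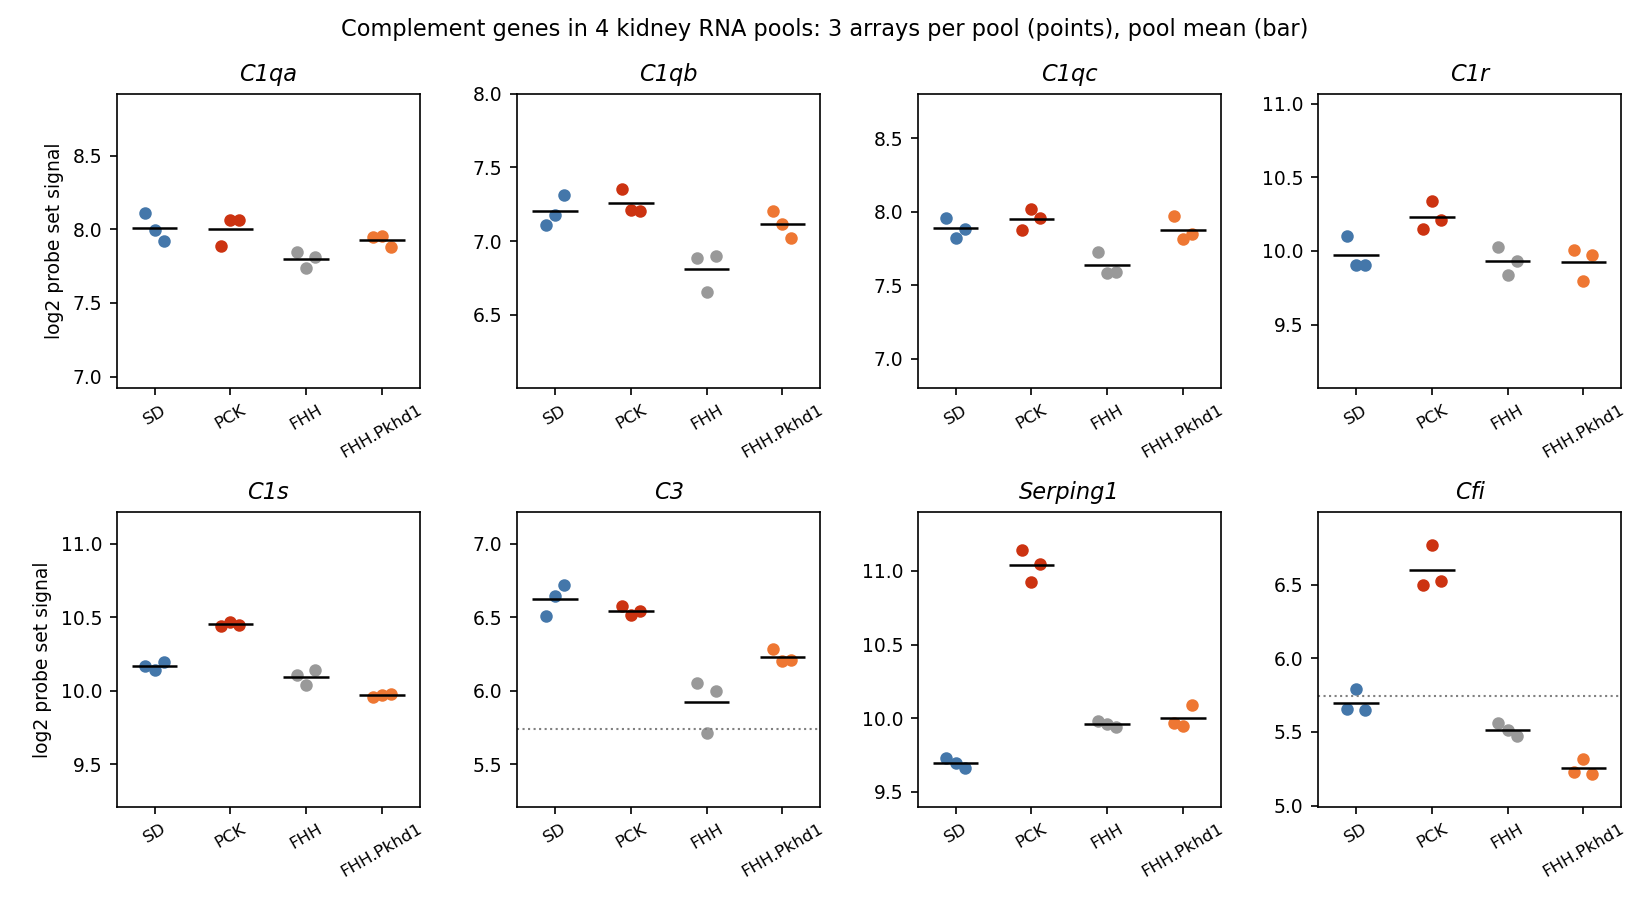
Log2 probe set signal (vertical axis, each panel spanning 2 units) of the 8 measured complement genes on the 3 arrays of each pool (points) with the pool mean (bar). The dotted line marks 5.74, the limit for a low signal. Serping1 and Cfi stand highest on the PCK arrays, and C3 and the C1q chains stand lowest on the FHH arrays.

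Other cell types and responses moved between the same pools. The macrophage list, with 11 of 12 genes measured and 9 above the low limit in some pool (Cd163 and Cx3cr1 below it in all), had mean log2 signals of 7.18 to 7.21 on the PCK arrays and 7.05 to 7.09 on the SD arrays. In that list 7 of the 11 genes were positive, with a median difference of 0.04. Its most abundant gene, Lyz2, was at 12.04 against 11.84. Of its genes, 2 were called higher in PCK, the scavenger receptors Mrc1 (0.90) and Cd163 (0.70, low in every pool). Of the 6 genes that passed the adjusted p, Aif1 (-0.37) and Adgre1 (-0.33, low in PCK) were lower and the others higher. The acute phase list stood at 6.10 to 6.18 in PCK against 5.25 to 5.32 in SD, with 2 of 8 measured genes called higher. Its median difference was 0.29, and 4 of its genes (Orm1, A2m, Lbp and Il6) were below the low limit in all pools. Its largest difference was that of Serpina3n, a secreted protease inhibitor, which stood at 4.22 in SD and was higher by 4.78 in PCK. The injury list, led by Havcr1 (9.25 against 6.10), stood at 8.83 to 8.87 in PCK and 8.01 to 8.02 in SD, with 1 of 5 called higher. Liver and plasma protein genes stood at 5.99 to 6.07 against 5.88 to 5.96, with 3 of 10 called higher and 1, albumin, lower (5.83 in PCK, 7.88 in SD). The interferon response list overlapped, at 7.14 to 7.27 against 7.20 to 7.25, with no gene called by limma and 1 of 10 at an unadjusted p under 0.05. The fibroblast list was lower in PCK, at 9.65 to 9.68 against 9.79 to 9.86, with 1 of 7, Lum, called lower. The dendritic and class II list was lower as well, with 3 of 5 genes called lower, the integrin chain Itgax among them. All 3 red cell genes measured were also called lower, while 1 of 5 adipocyte genes was called higher. Serpina3n, Havcr1, albumin, Lum, Pdgfra, Dcn, Mrc1, Cd163, Aif1 and Adgre1 are named after their values were seen. The part of these in the levels of Serping1, Cfi, C1r and C1s was not tested.

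The congenic strain was then set against FHH, the strain of its background, which carries no PCK segment. With technical replicates only, other differences between the pools cannot be told apart from that of the segment. None of the 8 members was called by limma, where 1.3% of all probe sets were called (0.612% higher and 0.683% lower), and 5 of the 8 had an unadjusted p under 0.05. Differences below 1.5-fold passed the adjusted p for 4 members, C3, C1qb and C1qc being higher and Cfi lower in FHH.Pkhd1, where 11.2% of all probe sets passed it. The members' median difference was 0.09, against -0.0045 for all probe sets.

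C1qb, a chain of the recognition molecule, was at 7.20, 7.12 and 7.02 in FHH.Pkhd1 and at 6.88, 6.65 and 6.90 in FHH (difference 0.30 ± 0.08, limma adjusted p = 0.0326). C1qc was at 7.97, 7.82 and 7.85 against 7.73, 7.59 and 7.59 (0.24 ± 0.06, limma adjusted p = 0.0276). The third chain, C1qa, was at 7.95, 7.95 and 7.88 against 7.85, 7.73 and 7.81, and its 0.13 ± 0.06 missed the threshold (limma adjusted p = 0.228). No C1q array of FHH.Pkhd1 overlapped those of FHH, which held for 29.2% of all probe sets. C3 was at 6.28, 6.20 and 6.21 in FHH.Pkhd1 and at 6.06, 5.71 and 6.00 in FHH, where 1 array fell under the low limit (0.31 ± 0.08, limma adjusted p = 0.0315).

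Serping1 was at 9.97, 9.95 and 10.09 in FHH.Pkhd1 against 9.98, 9.96 and 9.94 in FHH. The arrays overlapped, and the 95% interval of the difference was -0.09 to 0.17. Cfi was at 5.23, 5.32 and 5.22 against 5.56, 5.52 and 5.48, lower in FHH.Pkhd1 by 0.26 on the log2 scale with both pools low (limma adjusted p = 0.0367). C1s was at 9.96, 9.97 and 9.98 against 10.11, 10.04 and 10.14, and the difference of -0.12 ± 0.04 did not pass (limma adjusted p = 0.0813). C1r overlapped between the pools, at 10.0037, 9.80 and 9.97 in FHH.Pkhd1 and 10.03, 9.84 and 9.93 in FHH.

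The macrophage list stood at 7.02 to 7.04 in FHH.Pkhd1 and 6.99 in FHH, with 7 of its 11 genes positive, a median difference of 0.05, none called by limma and 5 at an unadjusted p under 0.05. The adjusted p alone was passed by 1 of them, Cd14 (-0.22), where 11.2% of all probe sets passed it. The liver and plasma protein list stood at 6.66 to 6.81 against 6.41 to 6.47, with 1 of 10 called higher. Adrenal cortex markers stood at 7.15 to 7.34 against 6.38 to 6.47, with 3 of 4 measured called higher. Neutrophil markers stood at 4.82 to 5.05 against 4.26 to 4.37, with 1 of 3, S100a9, called higher (1.24). S100a9 was low in FHH and at 5.82 in FHH.Pkhd1, and S100a8 and Camp were low in every pool. The injury list stood at 7.79 to 7.81 against 8.08 to 8.11, with Havcr1 called lower (-0.93), and 1 of 5 adipocyte genes was called lower. Their part in the C1q and C3 differences was not tested.

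**Figure D2:**
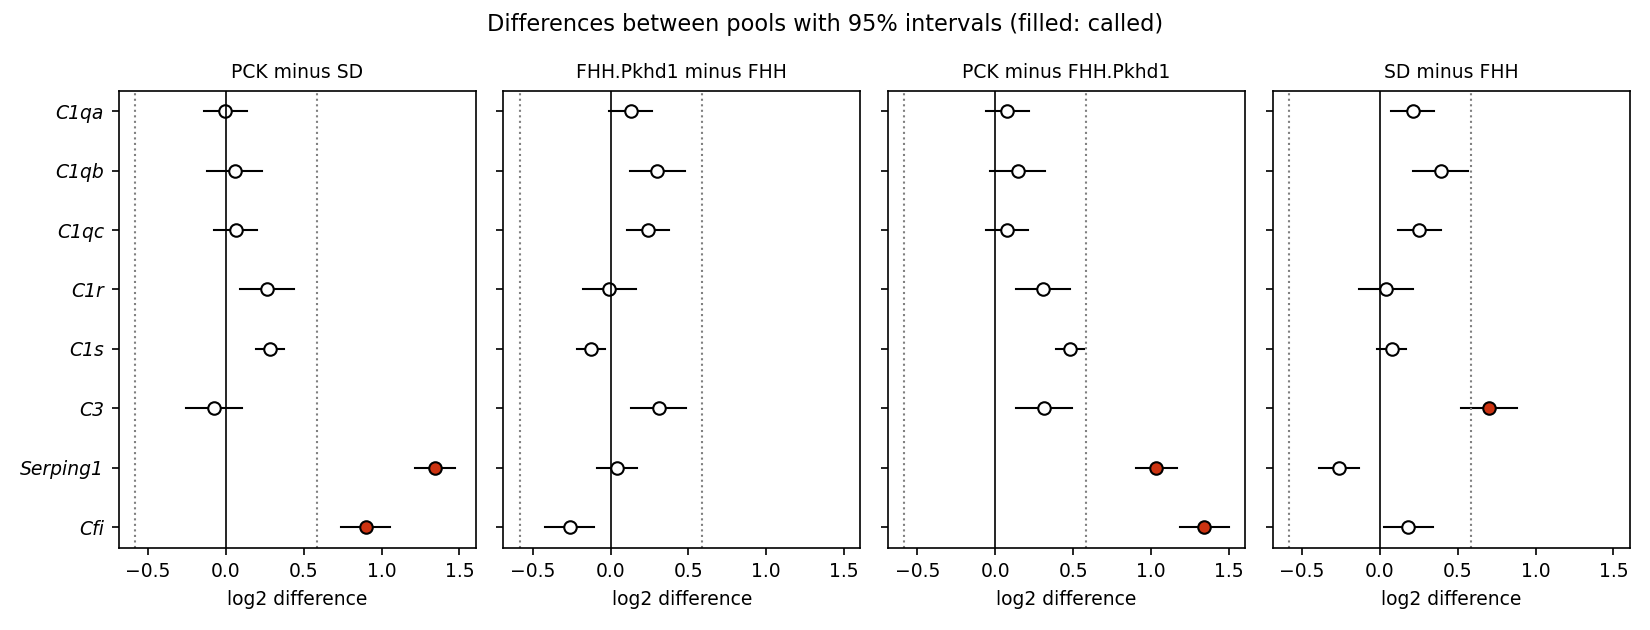
Log2 difference (horizontal axis) of each member in 4 comparisons between pools, with its 95% interval from limma. Filled points are called, and dotted lines mark 1.5-fold. Serping1 and Cfi are called in both comparisons that involve PCK, and C3 in SD minus FHH.

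The difference between the 2 comparisons was tested as an interaction, PCK minus SD less FHH.Pkhd1 minus FHH, which asks whether the mutant strain departs from its control alike on both backgrounds. Serping1 (1.30 ± 0.08, limma adjusted p = 8.78e-07) and Cfi (1.16 ± 0.10, limma adjusted p = 1.11e-05) were called, both higher, where 2.33% of all probe sets were called higher and 2.38% lower. C1s at 0.41 ± 0.06 (limma adjusted p = 0.000548) and C3 at -0.39 ± 0.12 (limma adjusted p = 0.0387) passed the adjusted p but not the fold limit, and 17.4% of all probe sets passed it. The interaction of the C1q chains was -0.13 for C1qa, -0.25 for C1qb and -0.18 for C1qc, none of which passed. PCK and SD may also differ at loci outside the Pkhd1 segment, and these cannot be told apart from the segment here.

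Setting PCK against FHH.Pkhd1 compares the backgrounds where both carry the mutated segment. This comparison shares the PCK arrays with the first and the FHH.Pkhd1 arrays with the second. All 8 members had a positive difference, with a median of 0.31 against 0.0033 for all probe sets. Called were Serping1 (1.04 ± 0.06, 2.05-fold, limma adjusted p = 8.76e-08) and Cfi (1.34 ± 0.07, from a low level in FHH.Pkhd1), where 2.3% of all probe sets were called higher and 2.76% lower. Arrays did not overlap for 49.2% of all probe sets. The adjusted p alone was also passed by C1s (0.48 ± 0.04), C1r (0.31 ± 0.08) and C3 (0.31 ± 0.08), while 36.1% of all probe sets passed it. The C1q chains differed by 0.07 to 0.14 and did not pass. Of the 4 probe sets annotated to Cfb and C2 together, 3 were lower in PCK and passed the adjusted p alone (-0.36, -0.36 and -0.44), and the other gave 0.25.

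Many marker lists moved between PCK and FHH.Pkhd1. The acute phase list stood at 6.10 to 6.18 in PCK against 5.17 to 5.25, with 4 of 8 genes called higher and 1 lower. The injury list stood at 8.83 to 8.87 against 7.79 to 7.81, with 3 of 5 called higher. The liver and plasma protein list stood at 5.99 to 6.07 against 6.66 to 6.81, with 1 of 10 called higher and 6 lower. Called lower in PCK were also 4 of 4 adrenal cortex, 4 of 5 adipocyte, 3 of 5 dendritic and class II, 3 of 7 fibroblast and 2 of 3 neutrophil genes. Of these, Cyp11b1 of the adrenal cortex and the neutrophil gene S100a8 were low in every pool. The other neutrophil gene, S100a9, was low in PCK and at 5.82 in FHH.Pkhd1. In the macrophage list 10 of 11 genes were positive, none was called by limma and 8 had an unadjusted p under 0.05. The adjusted p alone was passed by 6 of them, where 36.1% of all probe sets passed it. Their part in the differences of the members was not tested.

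Setting SD against FHH compares the backgrounds without the segment, on arrays that also served as controls above. C3 was higher in SD, at 6.51, 6.65 and 6.72 against 6.06, 5.71 and 6.00 in FHH, which is 1.62-fold (0.70 ± 0.08, limma adjusted p = 8.12e-05). It was the 1 member called, where 1.29% of all probe sets were called higher and 1.4% lower, and 37.5% had arrays that did not overlap. All 3 C1q chains were higher in SD and passed the adjusted p alone, C1qb by 0.39 ± 0.08, C1qc by 0.25 ± 0.06 and C1qa by 0.21 ± 0.06 (limma adjusted p = 0.0331 for C1qa, the least certain). Serping1 was lower in SD (-0.27 ± 0.06, limma adjusted p = 0.00713). In all, 5 of the 8 members passed the adjusted p, and 21% of all probe sets did. The macrophage list stood higher in SD as well, at 7.05 to 7.09 against 6.99 in FHH, with 8 of 11 genes positive, a median of 0.17, none called by limma and 8 at an unadjusted p under 0.05. The adjusted p alone was passed by 7 of them, Mrc1 (-0.46) and Cd14 (-0.27) being lower in SD, where 21% of all probe sets passed it. The red cell list stood at 9.82 to 9.96 in SD against 8.67 to 8.78, with all 3 genes called higher. Called lower in SD were 4 of 5 adipocyte, 3 of 4 adrenal cortex, 3 of 10 liver and plasma protein, 2 of 7 fibroblast, 2 of 5 urothelium and 1 of 5 injury genes, and 1 of 8 acute phase genes was called higher. Their part in the C3 and C1q differences was not tested.

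**Figure D3:**
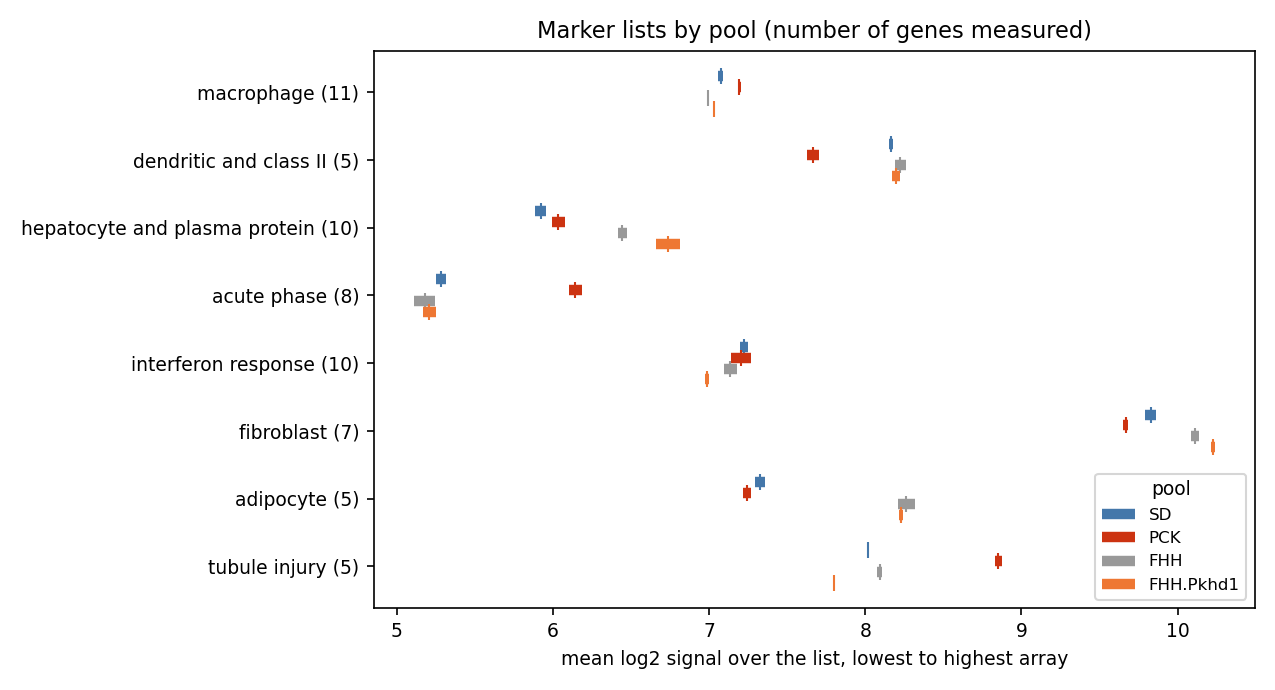
Mean log2 signal of marker lists (horizontal axis) in the 4 pools. A bar runs from the lowest to the highest of the 3 arrays, a tick marks its middle, and the number of genes measured stands in brackets. The acute phase and injury lists stand highest in PCK, the dendritic and class II list lowest in PCK, and the macrophage list spans a narrow range.

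The order of the pools fell into a few forms. C3 and each C1q chain were lowest in FHH, and the next pool, FHH.Pkhd1, did not overlap with it. Above that, C3 was lower in FHH.Pkhd1 than in PCK without overlap, and PCK and SD overlapped. For the C1q chains, FHH.Pkhd1 overlapped with the pool above it, and so did SD with PCK. C1s was lowest in FHH.Pkhd1, then came FHH, SD and PCK with no overlap between neighbours. Cfi followed the same order, also without overlap, and was low in all pools but PCK. C1r had the same order, but only PCK stood clear of the others. The steps of C1s from FHH.Pkhd1 to FHH and on to SD did not pass (limma adjusted p = 0.0813 and 0.236). Nor did that of Cfi from FHH to SD (limma adjusted p = 0.0961). Arrays did not overlap for 29.2% of all probe sets between FHH.Pkhd1 and FHH, and 37.5% between FHH and SD. The share was 34.4% between SD and PCK and 49.2% between FHH.Pkhd1 and PCK. Serping1 was lowest in SD, followed without overlap by FHH and FHH.Pkhd1, which overlapped, and then by PCK, 1.04 above.

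Over the 12 arrays, which share 4 pools, the levels of C1s and Cfi had r = 0.97, those of Serping1 and Cfi r = 0.84, and those of C1r and C1s r = 0.81. The C1q chains had r of 0.65 to 0.86 among themselves, and within pools -0.21 to 0.66. Once each pool's mean was taken off, C1s and Cfi had r = -0.05 and Serping1 and Cfi r = -0.67. C3 and C1qb had r = 0.92 over the arrays and 0.87 within pools. Among 14182 probe sets of other genes, those most like Serping1 over the 12 arrays were Fmo5 (r = 0.988), Serpina10 and Cited2 (both 0.984). Those most like Cfi were Pxmp4 (r = 0.987), Chdh (0.984) and Rbm20 (0.981), and those most like C3 were Gsta4 (0.963), Pcsk6 (0.956) and Slc44a1 (0.953).

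The rest of the pathway was read from a list of 47 further complement genes, of which 34 had 50 probe sets of their own. In PCK minus SD, 1 probe set was called higher and 1 lower, against 1.3% and 1.21% of all probe sets, and the list's median difference was 0.06 against 0.0008. In FHH.Pkhd1 minus FHH none was called by limma, with 15 at an unadjusted p under 0.05, against 1.3% called of all, and the median was -0.05 against -0.0045. By the adjusted p alone 3 passed as higher and 6 as lower, against 11.2% of all in either direction. In PCK minus FHH.Pkhd1, 3 were called higher and 1 lower, against 2.3% and 2.76% of all, with a median of 0.04 against 0.0033. In SD minus FHH, 2 were called higher and 3 lower, against 1.29% and 1.4% of all, with a median of -0.0028 against -0.0046. In the interaction, 5 were called higher and 0 lower by limma, against 2.33% and 2.38% of all. There 8 and 2 passed the adjusted p alone, against 17.4% of all in either direction.

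Among the soluble regulators, Clu, which encodes clusterin, a chaperone that also blocks the terminal complex, was called in PCK. It stood at 11.67, 11.56 and 11.62 there, at 10.09, 10.04 and 10.08 in SD, at 9.43, 9.34 and 9.33 in FHH and at 9.68, 9.52 and 9.58 in FHH.Pkhd1. All PCK arrays were thus above all others, as for Serping1 and Cfi. Its difference was 1.55 ± 0.05 in PCK minus SD and 1.33 ± 0.07 in the interaction (limma adjusted p = 2.39e-09 and 2.88e-07). A second Clu probe set, low in every pool, gave 0.36 ± 0.11 in PCK minus SD. SD was also above FHH (0.70 ± 0.05), a call lost with the mean of both probe sets (0.36).

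Among the membrane regulators, the other probe set called was that of Cd55, decay-accelerating factor, lower in SD than in FHH (-0.70 ± 0.07, limma adjusted p = 2.82e-05). A second Cd55 probe set gave -0.39, and with their mean (-0.54) the call was lost. Cd55 (0.59 ± 0.10) and Cd46 (0.63 ± 0.11), a surface cofactor for factor I, were also called in the interaction. The second Cd55 probe set gave 0.18 there and did not pass, and with the mean of both (0.38) the call was lost. Cd46 was low in every pool (4.18 to 4.62). The call of Cd55 was lost without any 1 of PCK replicates 2 and 3, SD replicate 3, FHH replicate 3 and FHH.Pkhd1 replicates 1 and 3 (0.51 to 0.58). That of Cd46 was lost without SD replicate 3 (0.56) or FHH.Pkhd1 replicate 3 (0.54) and after quantile normalization (0.58). Without either SD replicate 3 or FHH.Pkhd1 replicate 3, 3 probe sets of the list were called in the interaction, where 5 were called in all.

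Cfd encodes factor D, the protease that activates factor B, and is made mainly by fat cells. It was at 5.85, 5.99 and 6.04 in PCK and 5.67, 5.82 and 5.75 in SD, against 7.18, 7.08 and 6.96 in FHH and 7.45, 7.46 and 7.33 in FHH.Pkhd1. Both SD-derived pools thus lay far below both pools on the FHH background. It was 2.73-fold lower in PCK than in FHH.Pkhd1 and 2.50-fold lower in SD than in FHH (log2 differences -1.45 ± 0.07 and -1.32 ± 0.07, limma adjusted p = 2.32e-08 and 1.02e-07). The SD mean of 5.746 lay at the low limit, with the array at 5.67 under it, so the fold with SD is less certain. The adipocyte list stood at 7.22 to 7.26 in PCK, 7.30 to 7.35 in SD, 8.21 to 8.32 in FHH and 8.21 to 8.24 in FHH.Pkhd1, and all 5 of its genes were above the low limit. Its part in the Cfd level was not tested.

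Of the lectin pathway, Mbl1, a mannose-binding lectin, was higher in PCK than in FHH.Pkhd1, where it was low (0.75 ± 0.07), and in SD than in FHH (0.74 ± 0.07). A probe set of the lectin protease Masp1 was lower in SD than in FHH (-0.73 ± 0.09), but it was low in SD, and with the mean of the 3 Masp1 probe sets the difference was -0.20 and not called. Colec12, a scavenger receptor with a collectin domain, was at 8.95 in PCK and 8.38 in SD, and was called in the interaction (0.71 ± 0.11, limma adjusted p = 0.000671). Among the receptors, the integrin chain Itgax, a part of complement receptor 4, was lower in PCK than in SD (-0.77 ± 0.08, limma adjusted p = 3.78e-05). The dendritic and class II list, which also holds Itgax, was lower in PCK too, at 7.63 to 7.71 against 8.15 to 8.18. Itgb2, the shared beta chain of these receptors, was higher in PCK than in FHH.Pkhd1 (0.61 ± 0.06), a call lost without FHH.Pkhd1 replicate 1 (0.57). C5, the precursor of the C5a peptide, was higher by 0.31 ± 0.05 in PCK minus SD and by 0.29 ± 0.05 in FHH.Pkhd1 minus FHH, passing the adjusted p without the fold limit in both. The terminal components C8b (0.22 ± 0.14) and C6 (0.07) of PCK minus SD did not pass, and both were low in every pool.

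**Figure D4:**
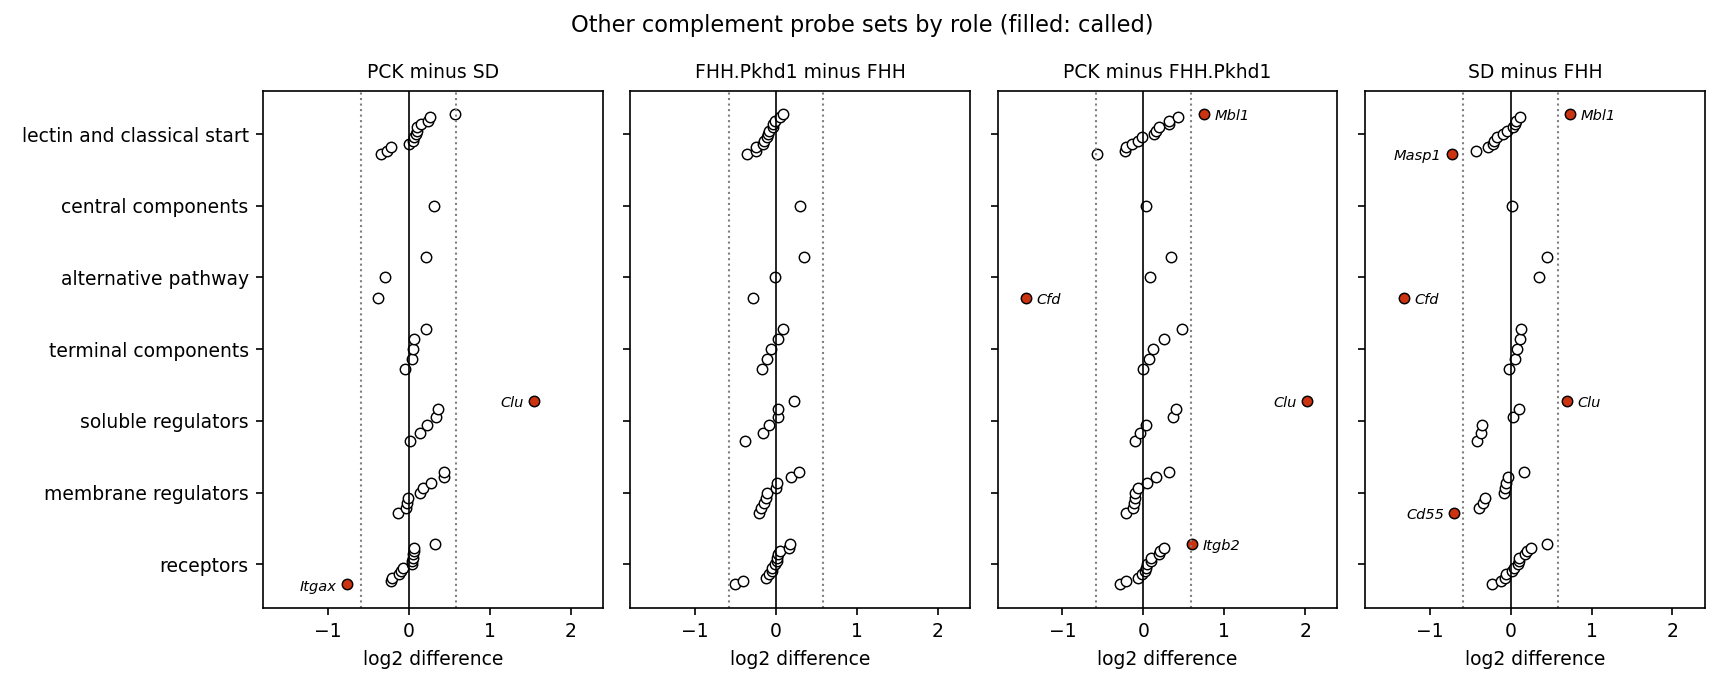
Log2 difference (horizontal axis) of the 50 probe sets of the other complement genes, grouped by role, in 4 comparisons between pools. Filled, named points are called, and dotted lines mark 1.5-fold. Clu stands apart in both comparisons with PCK and Cfd in both comparisons across backgrounds, and no point is filled in FHH.Pkhd1 minus FHH.

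Probe sets shared between genes were left out of these counts. The probe set annotated to both C4a and C4b, near-identical genes of the component that C1s cleaves, was at 9.89, 9.90 and 9.94 in PCK, 9.21, 9.14 and 9.14 in SD, 8.30, 8.22 and 8.25 in FHH and 8.24, 8.15 and 8.19 in FHH.Pkhd1. It was higher in PCK than in SD by 0.75 ± 0.05 (limma adjusted p = 2.80e-07), and its difference in FHH.Pkhd1 minus FHH was -0.06. Across backgrounds it differed more, by 0.90 ± 0.05 in SD minus FHH and by 1.72 ± 0.05 in PCK minus FHH.Pkhd1. The 2 probe sets annotated to both Tubb4b and C7 were higher in PCK than in FHH.Pkhd1 by 0.92 each. In PCK minus SD they gave 0.06 and 0.21, and they cannot be assigned to either gene. The 4 probe sets annotated to both Cfb and C2 lay between -0.05 and 0.38 in PCK minus SD and between 0.05 and 0.36 in FHH.Pkhd1 minus FHH, and limma called none in either. Of the 4, 1 passed the adjusted p alone in PCK minus SD (1 at an unadjusted p under 0.05), and 2 did in FHH.Pkhd1 minus FHH (3 at an unadjusted p under 0.05). Of all probe sets, 18.7% and 11.2% passed the adjusted p alone. These 4 probe sets cannot be assigned to 1 of the genes.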

How the data were processed

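Kidney RNA of 4 rat strains was pooled per strain and put on 3 Affymetrix rat expression arrays each. Per the labels' protocols, a 3′ in vitro transcription kit was used for labelling. The authors deposited log2 probe set signals. The submitters' processing notes name RMA and Partek 6.2 and say nothing on their order, or on whether all 12 arrays were normalized jointly. Groups came from the sample titles.

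Of 31099 probe sets, 57 controls were left out. Of the other 31042, 20826 carried 1 gene symbol, 436 several and 9780 none. Values were used as deposited, with no filter on low values, so all 8 members were tested. They were fitted with limma 3.58.1 in R 4.3.3 over all 12 arrays with 1 mean per strain, with Benjamini-Hochberg adjustment over all 31042 probe sets in a comparison. Members and gene lists were chosen with earlier results of these data known. Named were all members, list genes called in any comparison (in a role group with none, the 2 largest in PCK minus SD), and the 3 most correlated probe sets of each called member. Marker lists beyond those in the text stood as follows in PCK minus SD, as called higher and lower: lymphocyte 0 and 0, neutrophil 0 and 0, proximal tubule 0 and 0, distal tubule 0 and 1, collecting duct 1 and 0, podocyte 0 and 0, endothelium 0 and 0, urothelium 0 and 0, red cell 0 and 3. On simulated data for PCK minus SD over 31042 probe sets, 50 were changed at each fold. Of those changed 1.75-fold 94% were called, of those changed 2-fold 100%, of those changed 1.25-fold 0%, and of the unchanged 0. The last 2 follow largely from the limit of 1.5-fold and do not measure an error rate. Figures used matplotlib 3.10.9.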

Additional observations from a re-analysis of the deposited data

Results flagged for a closer look

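Some genes differed from their control strain unlike on the SD-derived and the FHH backgrounds, by the limma interaction (PCK minus SD less FHH.Pkhd1 minus FHH). Among the members these were Serping1 (1.30, from 1.34 and 0.04), Cfi (1.16, from 0.90 and -0.26), C1s (0.41, from 0.28 and -0.12) and C3 (-0.39, from -0.08 and 0.31). Among the other complement genes 8 probe sets were positive, those of Clu (1.33), Itgb2 (0.84), Colec12 (0.71), Cd46 (0.63), Cd55 (0.59), Masp1 (0.51), Cpn1 (0.40) and Thbd (0.38), and 2 were negative, those of Cd93 (-0.38) and Masp2 (-0.36). These are 8 and 2 of 50 probe sets, a share near that of all probe sets, of which 17.4% passed the adjusted p in either direction. Several rest on 1 probe set of a gene. The other Masp1 probe sets gave -0.17 and 0.17, those of Thbd -0.29 and -0.01, and those of Masp2 0.48 and 0.09. The other Cd55 probe set gave 0.18, that of Clu 0.33 and that of Cd93 -0.25. None of these other probe sets passed. The flagged Masp1 probe set was low in PCK and SD, and that of Thbd in all pools but FHH. Limma adjusted p-values ran from 2.88e-07 for Clu to 0.0387 for C3, and C1s, C3, Masp1, Cpn1, Thbd, Cd93 and Masp2 did not reach 1.5-fold. The arrays of each pool are technical replicates, so the spread between animals does not enter these tests.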

How the results depend on the processing

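The fold limit moved the counts most. With the adjusted p alone, the members called were 4, 4, 5, 5 and 4 in the 5 comparisons (the order being PCK minus SD, that of FHH.Pkhd1 with FHH, that of PCK with FHH.Pkhd1, that of SD with FHH, and the interaction), against 2, 0, 2, 1 and 2. For the 50 other complement probe sets they were 17, 9, 18, 18 and 10, against 2, 0, 4, 5 and 5. Of all probe sets, 18.7%, 11.2%, 36.1%, 21% and 17.4% passed the adjusted p alone. At 2-fold, 1 member was called in PCK minus SD and 0 in SD minus FHH, and of the others 1 in PCK minus SD, 2 in PCK minus FHH.Pkhd1, 1 in SD minus FHH and 1 in the interaction. Of all 31042 probe sets, 249, 477, 249 and 404 were called at 2-fold in these comparisons, in the order just given for the others. With the mean of a gene's probe sets, 2 other complement genes were called in SD minus FHH, where 347 of all 14213 genes were called. Leaving out each array in turn gave the same member counts in all 5 comparisons and 3 to 6 other probe sets in the interaction. Signs turned on leaving out an array for C1qa in PCK minus SD (-0.0484 to 0.0533), C1r in FHH.Pkhd1 minus FHH (-0.0548 to 0.0555) and in SD minus FHH (-0.0273 to 0.0866), and Serping1 in FHH.Pkhd1 minus FHH (-0.0033 to 0.0679), none of them called. Replicate numbers were not treated as pairs. Deviations of same-numbered arrays correlated at -0.26 to 0.35, and at 0.345, 0.066 and 0.133 between SD and FHH. These values do not settle whether some pools share an effect of the replicate number. With the replicate number as a block 2 members were called in PCK minus SD, as without it. The filters on low values, the other variance settings, fits of the compared pools alone and quantile normalization kept every member count within 1.5 times. Fits of the compared pools alone gave no interaction, which needs all arrays, and the filters on low values left out Cd46. The cause of these changes, beyond the limits themselves, was not tested. Pools without animal replicates limit all p-values.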
